A study of Mus musculus with 6 samples.

Results

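The 53 genes described here encode subunits of respiratory complexes I, III and IV that are made from nuclear genes, 34 of them in complex I, 9 in complex III and 10 in complex IV. They were taken by gene name from the deposited tables, not by their measured values, and are 53 of the 36706 genes in each table. All 53 passed the filter on low counts and were among the 14011 genes tested. Subunits encoded by mitochondrial DNA are not analysed here.

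The libraries were made from messenger RNA of cells grown from wild-type mouse bone marrow in medium with 20 ng/mL GM-CSF, a growth factor for myeloid cells, replaced on day 3 and day 5. In the IFN-γ+4-OI group (3 libraries) the cells received interferon gamma together with 4-OI (4-octyl itaconate, a form of the metabolite itaconate that enters cells), and in the IFN-γ group (3 libraries) interferon gamma alone. Cells of both groups were therefore exposed to IFN-γ, cells without it are not analysed here, and the labels give neither dose nor length of exposure. The labels name the cells dendritic cells, although the titles read BMDMs, and they do not say whether replicates came from different animals or cultures. The p-values below thus measure only how these libraries scatter, which may be technical.

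The respiratory chain passes electrons along the inner mitochondrial membrane to oxygen. Complex I oxidizes NADH and reduces ubiquinone, complex III passes the electrons from ubiquinol to cytochrome c, and complex IV, cytochrome c oxidase, reduces oxygen to water, and all 3 pump protons whose return drives ATP synthesis. In dendritic cells and macrophages, activation with interferon and microbial products is known to lower respiration, and itaconate is known as an inhibitor of succinate dehydrogenase, complex II of the same chain.

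Promoter sequence (250 bases before the annotated start, from RefSeq) is printed for Ndufv3, the subunit gene whose call held in every fit, for Ndufa11, with the next smallest p-value in complex I, and for Cox6a1, which holds motifs of 2 kinds. Capitals mark matches to the palindromic motif of nuclear respiratory factor 1, whose letters are those in capitals in the Ndufa11 window, and to CCGGAAG or its reverse complement CTTCCGG, the core bound by ETS factors such as GABP.
Ndufv3, GRCm38.p6 chr17:31519865-31520114, plus strand: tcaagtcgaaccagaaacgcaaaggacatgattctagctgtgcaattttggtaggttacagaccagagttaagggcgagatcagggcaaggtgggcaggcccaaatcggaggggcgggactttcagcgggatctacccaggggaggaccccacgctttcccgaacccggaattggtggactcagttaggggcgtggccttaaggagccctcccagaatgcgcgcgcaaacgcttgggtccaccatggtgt
Ndufa11, GRCm38.p6 chr17:56717512-56717761, plus strand: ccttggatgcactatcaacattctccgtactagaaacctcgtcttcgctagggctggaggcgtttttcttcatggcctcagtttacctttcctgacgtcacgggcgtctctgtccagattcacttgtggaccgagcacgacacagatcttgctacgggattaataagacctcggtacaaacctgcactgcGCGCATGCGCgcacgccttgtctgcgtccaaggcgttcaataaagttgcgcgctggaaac
Cox6a1, GRCm38.p6 chr5:115348959-115349208, minus strand: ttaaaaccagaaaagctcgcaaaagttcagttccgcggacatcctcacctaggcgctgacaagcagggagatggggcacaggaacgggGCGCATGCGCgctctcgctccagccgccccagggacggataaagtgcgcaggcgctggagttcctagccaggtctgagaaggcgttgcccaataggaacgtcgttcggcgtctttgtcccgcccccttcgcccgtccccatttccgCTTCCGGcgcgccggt
The Ndufv3 window held neither motif, the Ndufa11 window held the nuclear respiratory factor 1 motif 60 bases before the start, and the Cox6a1 window held that motif 162 bases and the ETS motif 16 bases before the start. Of the members, 44 matched the promoter table, which spans 250 bases before to 50 after each start. On either strand, the nuclear respiratory factor 1 motif was found in 3 of these genes (Cox6a1, Uqcrc1 and Ndufa11), or 6.82%, against 0.971% of all 32851 promoters, and CCGGAAG in 9, or 20.5%, against 8.86%. AAGATGGCG, the motif of YY1, was found in 5 (Ndufc1, Ndufa9, Ndufs7, Ndufs6 and Ndufs4), or 11.4%, against 1.4%. The matches did not overlap each other, and they describe sequence only.

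The libraries held 19656368 to 29244717 counts, at which 3 counts correspond to 0.103 to 0.153 CPM, counting error only. Levels are given as CPM, counts scaled to the size of each library, with TMM factors that correct for differences in RNA composition, and differences as log2 fold change of IFN-γ+4-OI over IFN-γ from edgeR's quasi-likelihood test, with a Benjamini-Hochberg adjusted p over all genes tested and a threshold of 0.05. Genes of conventional dendritic cells were detected, Zbtb46 at 11.4 ± 1.45 CPM with IFN-γ+4-OI and 15.5 ± 0.655 with IFN-γ (SD, n = 3), and so were those of macrophages. The marker counts that follow stand beside 25.4% of all genes tested that were lower and 22.7% that were higher. Of 12 tested dendritic cell markers 8 were lower and 1 higher. Their summed levels were 5018 to 5923 CPM with IFN-γ+4-OI and 6245 to 7467 with IFN-γ. Of 8 macrophage markers 1 was lower and 2 higher, at 2688 to 2828 CPM with IFN-γ+4-OI and 2109 to 2188 with IFN-γ. All 6 tested mast cell and basophil markers were lower, at 103 to 111 CPM with IFN-γ+4-OI and 341 to 371 with IFN-γ, as were 4 of 6 monocyte markers, at 5225 to 6334 CPM with IFN-γ+4-OI and 5628 to 6994 with IFN-γ. Of 9 neutrophil markers 6 were lower and 2 higher, both tested T and NK cell markers were lower, and none of 5 B cell markers passed. No marker of these lists was at 0 in every library. The part of these cells in the results below was not tested, and in such bulk libraries fewer cells of a type and less RNA per cell cannot be told apart.

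IFN-γ replicate 1 stood apart over the members. Their summed level was 4277, 4409 and 5407 CPM in IFN-γ+4-OI replicates 1 to 3, against 3499, 5217 and 4928 CPM in IFN-γ replicates 1 to 3. IFN-γ replicate 1 was the lowest IFN-γ library for 51 of the 53 genes and the lowest of all 6 libraries for 47, with a median of 31.3% below the mean of IFN-γ replicates 2 and 3 (range 2.74 to 51.6% over members). The exceptions within the group were Ndufb4 and Cox7c, which were lowest in IFN-γ replicate 3. On the other side, IFN-γ+4-OI replicate 3 was the highest of its group for 50 of 53. The median coefficient of variation of a member was 12.8% over the IFN-γ+4-OI libraries and 21.5% over the IFN-γ libraries, and 5.07% over IFN-γ replicates 2 and 3 alone. The fitted results below are therefore given with and without IFN-γ replicate 1.

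**Figure D1:**
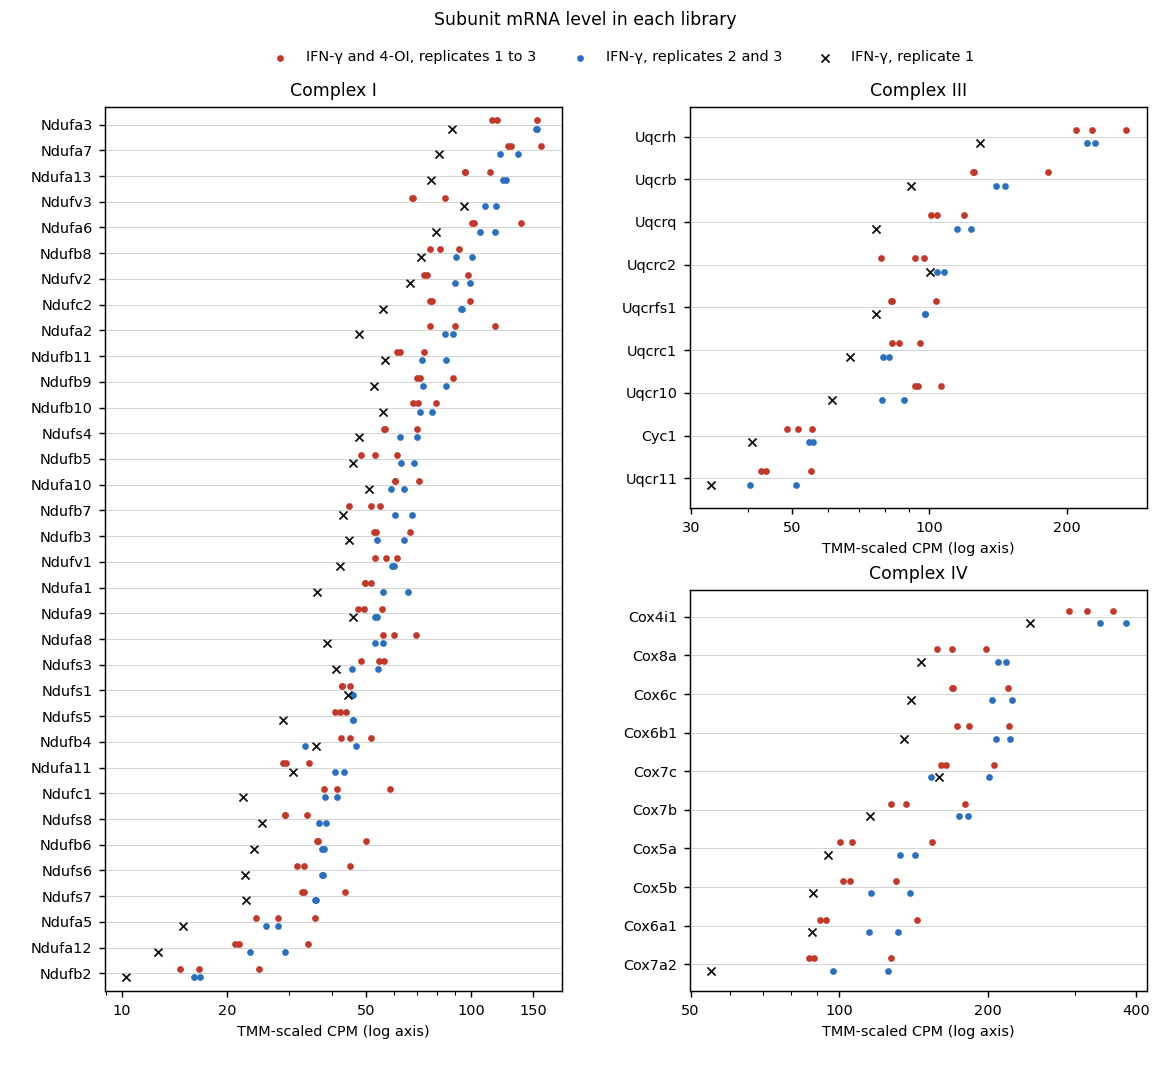
Level of each of the 53 subunit genes in each library, as TMM-scaled CPM on a log axis, with IFN-γ+4-OI libraries in red above the IFN-γ libraries, of which replicate 1 is a cross. The cross lies left of the blue points for 51 of 53 genes, and only in Ndufv3, Uqcrc2, Uqcr10 and Uqcrc1 do the red points and the IFN-γ points not overlap.

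With all 6 libraries, 1 of the 53 members was lower with IFN-γ+4-OI, Ndufv3 of complex I, and none was higher, against 25.4% of all genes tested that were lower and 22.7% that were higher. By unadjusted p under 0.05 there were 2, Ndufv3 and Uqcr10, against 7634 of the 14011 genes tested, in either direction. DESeq2 called Uqcr10 higher as well, against 22.5% of genes. Scaling by total counts, without the correction for composition, called 9 members lower against 38.9% of genes, and moved the median of all genes to -0.27. Blocking on replicate number called 2 lower and 8 higher, against 28.0% and 25.6% of genes. The median log2 fold change was 0.09 over complex I, 0.18 over complex III and -0.02 over complex IV, beside -0.01 over all genes tested. Fitted values lay above 0 for 32 members and below 0 for 21. The members' standard errors had a median of 0.17 on the log2 scale, against 0.13 over all genes. In CPM, the groups did not overlap for Ndufv3 and Uqcrc2, lower with IFN-γ+4-OI, and for Uqcr10 and Uqcrc1, higher, where 30.6% of all genes were lower and 28.9% higher in this sense.

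Without IFN-γ replicate 1, the fold change moved down in all 53 members. This follows by construction, because that library lay below the mean of the other IFN-γ libraries in every member, and the calls below carry this shift. In this fit 10 members were lower and 1 higher (adjusted p under 0.05), against 28.2% of genes lower and 26.4% higher. The members' share of lower calls, 18.9%, was still below that of all genes. The 10 were Ndufv3, Ndufa11, Ndufa13, Ndufa1, Ndufb5, Ndufb7, Ndufb11 and Ndufs8 of complex I, Uqcrc2 of complex III and Cox8a of complex IV, and the gene that was higher was Uqcr10. The medians were -0.06, 0.00 and -0.18 for complexes I, III and IV, all 10 members of complex IV lay below 0, and 36 of the 53 did. Without this library limma-voom called 8, 1 and 1 lower in complexes I, III and IV, against 28.5% of genes. DESeq2 called 7, 1 and 1, against 24.7% of genes. Groups did not overlap in CPM for 11 members that were lower and 2 that were higher, against 35.7% and 36.0% of all genes.

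Leaving out IFN-γ+4-OI replicate 3 as well raised the count to 31 lower (19, 4 and 8 in complexes I, III and IV) and 1 higher, against 33.3% and 32.7% of genes, and all 10 genes that were lower without IFN-γ replicate 1 alone were among the 31. This fit leaves out the lowest IFN-γ library for 51 members and the highest IFN-γ+4-OI library for 50, which lowers their fold change by construction. It rests on 2 libraries a group, with 2 residual degrees of freedom and a median of 33.3 prior ones taken from other genes.

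What else moved with IFN-γ replicate 1 was measured by gene length. The members are short: their exon length in the deposited tables has a median of 764 bases, against 3602 over all genes tested, and 31 of 53 are no longer than 1000 bases, as are 6.39% of genes tested. Relative to the mean of the other libraries of its group, the median log2 level in IFN-γ replicate 1 was -0.43 over genes of up to 500 bases, -0.45 over those of more than 500 and up to 1000 bases and 0.42 over those of more than 8000 bases. Over the 53 members it was -0.54, and over 79 cytosolic ribosomal protein genes, which are also short and belong to another pathway, -0.50. IFN-γ+4-OI replicate 3 lay the other way, at 0.31 over the members, 0.32 over the ribosomal protein genes and -0.09 over genes of more than 8000 bases. Stromal marker genes (Col1a1, Col1a2, Col3a1 and Pdgfrb, 1 of 4 tested and none at 0 in every library) summed to 0.579 to 1.11 CPM with IFN-γ+4-OI, and to 37.4 CPM in IFN-γ replicate 1 against 3.61 to 3.73 in the other IFN-γ libraries; the part of stromal RNA or RNA quality in the members' levels was not tested.

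**Figure D2:**
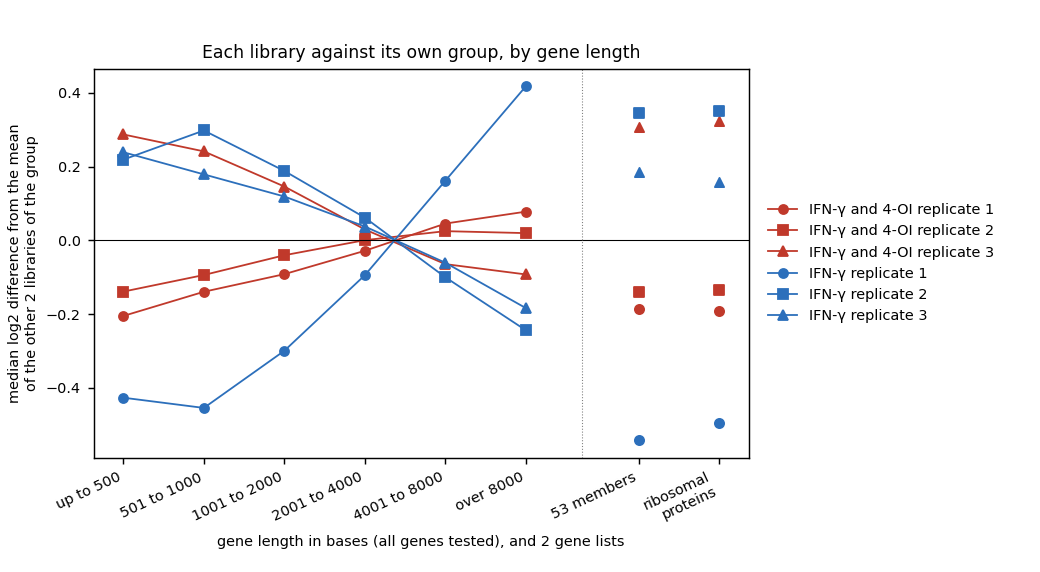
Median log2 difference of each library from the mean of the other libraries of its group (vertical axis), over all genes tested in 6 classes of exon length (horizontal axis), and, right of the dotted line, over the 53 members and the ribosomal protein genes. IFN-γ replicate 1 runs from -0.43 in the shortest class to 0.42 in the longest, and lies at -0.54 over the members.

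A fit with all 6 libraries and an offset for each library's trend of level on gene length called 7 members lower and 2 higher, against 28.1% and 28.8% of genes. The 7 were Ndufv3, Ndufa11, Ndufb5, Ndufb7 and Ndufb11 of complex I, Uqcrc2 and Cox8a, all of them among the 10 that were lower without IFN-γ replicate 1, and the 2 were Ndufa8 and Uqcr10. The members' median standard error was 0.08 in this fit, and the medians of the log2 fold change were -0.02, 0.06 and -0.12 for complexes I, III and IV. With the offsets and without IFN-γ replicate 1, 11 were lower and 2 higher, against 28.8% and 29.4% of genes, and 8 of the 11 were among the 10.

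**Figure D3:**
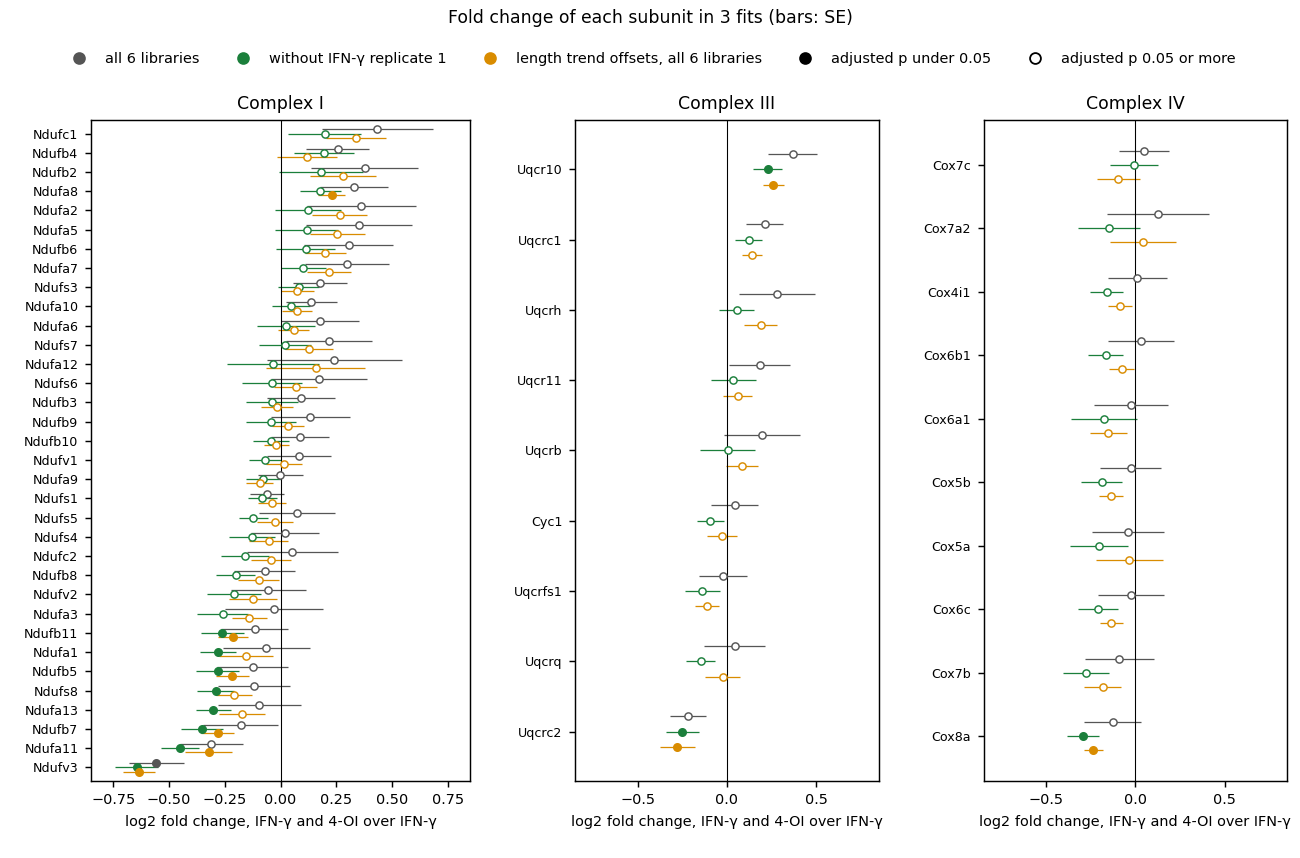
log2 fold change of IFN-γ+4-OI over IFN-γ (horizontal axis) with its SE for each subunit in 3 fits: all 6 libraries, without IFN-γ replicate 1, and all 6 with length offsets, with filled points for adjusted p under 0.05. Filled points in all 3 fits are seen for Ndufv3 alone, and the points without IFN-γ replicate 1 lie left of those with all libraries in each gene. That shift follows by construction, since the omitted library lay below the mean of the other IFN-γ libraries in every member.

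Complex I divides into an arm in the matrix, where NADH is oxidized and ubiquinone reduced, and a membrane arm that pumps protons. Of 15 members of the matrix arm 1 was lower with all libraries and 2 without IFN-γ replicate 1, of 9 in the part of the membrane arm next to it 0 and 3, and of 10 in the far part, the Ndufb subunits, 0 and 3, with no gene higher in either fit. Over all genes the shares lower were 25.4% with all libraries and 28.2% without IFN-γ replicate 1. These arms were assigned after the values had been seen. Their median log2 fold changes were 0.17, 0.05 and 0.09 with all libraries and -0.04, -0.16 and -0.04 without IFN-γ replicate 1.

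Ndufv3 encodes an accessory subunit of the NADH-oxidizing tip of the matrix arm and is spliced into short and long forms. It had 67.6, 67.9 and 83.9 CPM with IFN-γ+4-OI, against 95.1, 118 and 109.7 CPM with IFN-γ. The groups did not overlap, and even IFN-γ replicate 1, the lowest of its group, lay above all IFN-γ+4-OI libraries. Its means were 73.1 ± 9.35 CPM with IFN-γ+4-OI and 108 ± 11.6 CPM with IFN-γ (SD, n = 3), a 1.47-fold lower level with a log2 fold change of -0.56 ± 0.12 (SE; edgeR adjusted p = 0.00641). Without IFN-γ replicate 1 it was -0.64 ± 0.10 (edgeR adjusted p = 0.000493), and in each of 17 alternatives it was below 0 and past the threshold, from -0.82 to -0.48 with adjusted p of 3.03e-16 to 0.0365. The gene lies on chromosome 17, 31739089 to 31750300, plus strand, in the coordinates of the deposited tables. Those coordinates do not match GRCm38 (mm10), the build of the promoter sequences, and no build is assigned to them here. GENCODE lists coding transcripts of 493, 645 and 1582 bases, which a count per gene does not tell apart.

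The other matrix arm subunits named here did not pass with all libraries. Ndufs1, the large iron-sulfur subunit, had 42.5, 42.7 and 44.9 CPM with IFN-γ+4-OI and 44.4, 45.5 and 45.8 CPM with IFN-γ. It was the member least low in IFN-γ replicate 1 (2.74%) and the longest, at 3657 bases, and its log2 fold change was -0.06 ± 0.08 (SE; edgeR adjusted p = 0.535). Ndufa7 had 127, 129.8 and 159 CPM with IFN-γ+4-OI and 80.8, 136 and 121 CPM with IFN-γ, groups that overlapped through IFN-γ replicate 2, with a log2 fold change of 0.30 that was 0.10 without IFN-γ replicate 1 (edgeR adjusted p = 0.225 and 0.423). Ndufa6, a small LYR-motif subunit, had 100.2, 102 and 138 CPM with IFN-γ+4-OI and 79.1, 117 and 106 CPM with IFN-γ, and its log2 fold change was 0.18, or 0.02 without IFN-γ replicate 1 (edgeR adjusted p = 0.440 and 0.892). Of the subunits in the ubiquinone-reducing part of the arm, Ndufs8 had 29.4, 29.4 and 33.8 CPM with IFN-γ+4-OI and 25.2, 36.8 and 38.5 CPM with IFN-γ. It overlapped only through IFN-γ replicate 1, and its log2 fold change of -0.12 (edgeR adjusted p = 0.574) became -0.29 without that library (edgeR adjusted p = 0.0149), whereas Ndufs7 and Ndufs3 had 0.22 and 0.18, and 0.02 and 0.08 without it. Ndufv1, which binds the flavin and NADH, and its partner Ndufv2 had log2 fold changes of 0.08 and -0.05, and -0.07 and -0.21 without IFN-γ replicate 1, none past the threshold. Ndufa2, Ndufa5, Ndufa9, Ndufa12, Ndufs4 and Ndufs6 lay between 0.00 and 0.36 with all libraries and between -0.13 and 0.12 without IFN-γ replicate 1, and none passed.

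In the near part of the membrane arm, Ndufa11, a subunit at the contact with complex III in supercomplexes, had 29.5, 29.0 and 34.3 CPM with IFN-γ+4-OI and 30.9, 43.3 and 40.8 CPM with IFN-γ. IFN-γ replicate 1 alone fell within the range of the IFN-γ+4-OI libraries. Its log2 fold change was -0.31 ± 0.14 with all libraries (SE; edgeR adjusted p = 0.105), -0.45 ± 0.09 without IFN-γ replicate 1 (edgeR adjusted p = 0.00203) and -0.32 with length offsets (edgeR adjusted p = 0.0280). Ndufa13, known in human cells as GRIM-19, a gene found through cell death induced by interferon and retinoic acid, had 96.0, 96.1 and 113 CPM with IFN-γ+4-OI and 76.4, 126 and 123 CPM with IFN-γ. IFN-γ replicate 1 lay below and the other IFN-γ libraries above all of the IFN-γ+4-OI ones, and the log2 fold change was -0.10, or -0.30 without IFN-γ replicate 1 (edgeR adjusted p = 0.702 and 0.0115); 29.6% of its exon bases are shared with Tssk6 on the opposite strand. Ndufa8, a twin-cysteine-motif subunit on the intermembrane space side, stood the other way at 55.8, 60.1 and 69.3 CPM with IFN-γ+4-OI and 38.7, 55.8 and 52.9 CPM with IFN-γ. The fitted log2 fold change was 0.33 with all libraries, 0.18 without IFN-γ replicate 1 and 0.23 with length offsets (edgeR adjusted p = 0.108, 0.132 and 0.00970). Ndufc1 had the highest fitted value of complex I, 0.43 ± 0.25 (SE; edgeR adjusted p = 0.186), with 41.3, 37.9 and 58.4 CPM with IFN-γ+4-OI and 22.2, 41.3 and 38.2 CPM with IFN-γ, and 0.20 without IFN-γ replicate 1. Ndufa3 had 118, 115 and 154 CPM with IFN-γ+4-OI and 88, 153 and 154 CPM with IFN-γ, and a log2 fold change of -0.03, or -0.26 without IFN-γ replicate 1 (edgeR adjusted p = 0.921 and 0.0869). Ndufa1, which shares 31.2% of its exon bases with Gm39503 on the opposite strand, had 49.7 to 51.6 CPM with IFN-γ+4-OI and 36.1 to 66.0 CPM with IFN-γ, and passed as lower without IFN-γ replicate 1 (log2 fold change -0.28; edgeR adjusted p = 0.0180). Ndufa10, Ndufc2 and Ndufs5 did not pass, with 0.14, 0.05 and 0.07 with all libraries and 0.05, -0.16 and -0.12 without IFN-γ replicate 1.

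Among the Ndufb subunits of the far membrane arm, Ndufb7, another twin-cysteine-motif protein, had 44.7, 51.7 and 54.9 CPM with IFN-γ+4-OI and 43.0, 67.7 and 60.7 CPM with IFN-γ. IFN-γ replicate 1 lay below and the other IFN-γ libraries above all of the IFN-γ+4-OI ones, and the log2 fold change was -0.18 with all libraries, -0.35 without IFN-γ replicate 1 and -0.28 with length offsets (edgeR adjusted p = 0.415, 0.0111 and 0.00965). Ndufb5 and Ndufb11 passed in the same fits, with log2 fold changes of -0.12 for both with all libraries, -0.28 and -0.26 without IFN-γ replicate 1 and -0.22 and -0.21 with length offsets; Ndufb11 shares 29.0% of its exon bases with Rbm10 on the opposite strand. Ndufb4 had 45.0, 42.5 and 51.5 CPM with IFN-γ+4-OI and 36.0, 46.9 and 33.5 CPM with IFN-γ, with IFN-γ replicate 2 the highest of its group. The log2 fold change of this gene of 0.26 (edgeR adjusted p = 0.175) reached 0.43 without IFN-γ replicate 2 (edgeR adjusted p = 0.0210). The other Ndufb subunits ranged in log2 fold change from -0.07 (Ndufb8) to 0.38 (Ndufb2) with all libraries and from -0.20 (Ndufb8) to 0.18 (Ndufb2) without IFN-γ replicate 1, none past the threshold.

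Of the 4 members whose groups did not overlap in CPM, 3 were in complex III. Uqcr10, a small subunit beside cytochrome c1 and the Rieske protein, had 94.4, 93.0 and 106 CPM with IFN-γ+4-OI and 61.2, 87.8 and 78.5 CPM with IFN-γ. All IFN-γ+4-OI libraries lay above all IFN-γ libraries, and the means were 97.9 ± 7.24 CPM with IFN-γ+4-OI and 75.8 ± 13.5 CPM with IFN-γ (SD, n = 3), with a log2 fold change of 0.37 ± 0.14 (SE; edgeR adjusted p = 0.0558). It passed as higher without IFN-γ replicate 1 (0.23 ± 0.08; edgeR adjusted p = 0.0387) and with length offsets (0.26; edgeR adjusted p = 0.00458), and in 8 of 17 alternatives in all. The gene lies on chromosome 11, 4651968 to 4654344, minus strand.

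Uqcrc1 and Uqcrc2 encode the paired core proteins of complex III, and their values went in opposite directions. Uqcrc1 had 82.6, 85.8 and 95.3 CPM with IFN-γ+4-OI and 66.9, 81.7 and 79.3 CPM with IFN-γ, without overlap. Its log2 fold change was 0.21 ± 0.10, and 0.12 without IFN-γ replicate 1, and did not pass (edgeR adjusted p = 0.133 and 0.194). Uqcrc2 had 92.8, 97.1 and 78.3 CPM with IFN-γ+4-OI and 100.4, 108 and 104 CPM with IFN-γ, also without overlap, and was 1 of the 3 members for which IFN-γ+4-OI replicate 3 was not the highest of its group. The fitted log2 fold change was -0.22 ± 0.10 with all libraries (SE; edgeR adjusted p = 0.105), -0.25 without IFN-γ replicate 1 (edgeR adjusted p = 0.0475) and -0.28 with length offsets (edgeR adjusted p = 0.0362). With the offsets and without IFN-γ replicate 1 it did not pass (edgeR adjusted p = 0.0770), and without IFN-γ+4-OI replicate 3, its lowest library, the value was -0.13 (edgeR adjusted p = 0.273). It passed in 5 of 17 alternatives, and 26.7% of its exon bases are shared with Pdzd9 on the opposite strand.

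The other complex III subunits did not pass with all libraries, without IFN-γ replicate 1 or with length offsets, while Uqcrb, Uqcrfs1 and Uqcrq were lower without both libraries that stood apart. Uqcrh, the hinge protein that contacts cytochrome c1, had 209, 228 and 269.9 CPM with IFN-γ+4-OI and 129, 221 and 231 CPM with IFN-γ, and its log2 fold change of 0.28 was 0.05 without IFN-γ replicate 1 (edgeR adjusted p = 0.308 and 0.669). Uqcrb, a small subunit near the ubiquinone site, had 125, 125 and 182 CPM with IFN-γ+4-OI and 91.2, 146 and 139.9 CPM with IFN-γ. The log2 fold change of this gene was 0.20, or 0.00 without IFN-γ replicate 1 (edgeR adjusted p = 0.479 and 0.988). Cyc1, cytochrome c1, had 51.3, 55.3 and 48.8 CPM with IFN-γ+4-OI and 40.9, 55.6 and 54.3 CPM with IFN-γ, and Uqcrq had 101, 104 and 119 CPM with IFN-γ+4-OI and 76.4, 123 and 115 CPM with IFN-γ. Both had a log2 fold change of 0.04 with all libraries, and of -0.09 and -0.15 without IFN-γ replicate 1. Uqcrfs1, the Rieske iron-sulfur protein, had -0.02 and -0.14, and Uqcr11 0.18 and 0.04.

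In complex IV no member passed with all libraries, and the smallest adjusted p was 0.549. Cox8a, a small subunit of the membrane part, had 158, 169 and 198 CPM with IFN-γ+4-OI and 146, 218 and 209 CPM with IFN-γ. IFN-γ replicate 1 lay below and IFN-γ replicates 2 and 3 above all IFN-γ+4-OI libraries, and the log2 fold change was -0.13 ± 0.16 with all libraries, -0.29 ± 0.09 without IFN-γ replicate 1 (SE; edgeR adjusted p = 0.0232) and -0.24 with length offsets (edgeR adjusted p = 0.00490). Cox4i1, the ubiquitous form of the regulatory subunit 4, had 292, 318 and 358 CPM with IFN-γ+4-OI and 243, 381 and 337 CPM with IFN-γ. The fitted log2 fold change was 0.01, or -0.16 without IFN-γ replicate 1 (edgeR adjusted p = 0.967 and 0.177).

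Cox7a2 had the largest standard error of the complex IV genes, with 86.9, 88.8 and 128 CPM with IFN-γ+4-OI and 54.9, 97.2 and 126 CPM with IFN-γ. The log2 fold change of this gene was 0.13 ± 0.28, and -0.15 without IFN-γ replicate 1, and it passed in none of 17 alternatives. Cox7b had 128, 136 and 179.9 CPM with IFN-γ+4-OI and 115, 175 and 182 CPM with IFN-γ, and its log2 fold change was -0.09, or -0.28 without IFN-γ replicate 1 (edgeR adjusted p = 0.734 and 0.0947). The nuclear subunits Cox5a and Cox6b1 had log2 fold changes of -0.04 and 0.03, and -0.20 and -0.17 without IFN-γ replicate 1. For Cox5a the libraries were at 100.3, 106 and 154 CPM with IFN-γ+4-OI and 94.7, 143 and 133 CPM with IFN-γ, and for Cox6b1 at 173, 183 and 220.5 CPM with IFN-γ+4-OI and 135, 208 and 221 CPM with IFN-γ. Cox5b, Cox6a1, Cox6c and Cox7c lay between -0.03 and 0.05 with all libraries and between -0.21 and -0.01 without IFN-γ replicate 1, none past the threshold.

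Levels per length were compared between genes with the deposited TPM, which divides counts by gene length, within each group. In complex I, Ndufa3 and Ndufa6 stood highest, at 645 ± 46.7 and 355 ± 32.5 TPM with IFN-γ+4-OI and 849.9 ± 168 and 409 ± 36.4 with IFN-γ (SD, n = 3). Ndufs1 and Ndufa11 stood lowest, at 21 ± 1.27 and 20.5 ± 0.164 TPM with IFN-γ+4-OI and 28.6 ± 2.86 and 32.9 ± 2.19 with IFN-γ. The length used for Ndufa11 is 2661 bases, the union of its exons, while its GENCODE coding transcripts have 493 to 918 bases, which lowers its TPM by construction. In complex III Uqcrh and Uqcrb stood highest and Cyc1 lowest, at 759 ± 39.7, 459 ± 59.8 and 59.2 ± 8.46 TPM with IFN-γ+4-OI, and in complex IV Cox4i1 and Cox6b1 highest, at 743 ± 32.3 and 717 ± 30 TPM, and Cox5a lowest, at 66.5 ± 9.68 TPM. Cox4i1 and Cox6b1 lay within each other's spread, and so did Cox6b1 and Cox7c with IFN-γ+4-OI (692 ± 33.3 TPM for Cox7c). With IFN-γ+4-OI the mean of Ndufa11 lay within the spread of Ndufs1, but the mean of Ndufs1 lay outside the small spread of Ndufa11. Ndufa3 lay above Ndufa6, and Uqcrh above Uqcrb, by more than their spread.

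Relative to the median member of its own library, a measure that takes out what all members share in a library, the groups did not overlap for 8 members that were lower with IFN-γ+4-OI and 6 that were higher, against 24.6% of all genes that were lower and 18.8% that were higher in this sense. The lower ones were Ndufv3, Ndufa11, Ndufb5, Ndufb7, Ndufb8, Ndufb11, Ndufs8 and Cox8a, and the higher ones Ndufa7, Ndufa8, Ndufb6, Ndufc1, Uqcr10 and Uqcr11. Ndufv3 stood at -0.05, 0.00 and 0.08 on the log2 scale with IFN-γ+4-OI and at 0.79, 0.48 and 0.59 with IFN-γ. Uqcr10 stood at 0.43, 0.45 and 0.42 with IFN-γ+4-OI and at 0.16, 0.06 and 0.11 with IFN-γ, and Ndufa11 at -1.24, -1.23 and -1.21 with IFN-γ+4-OI and at -0.83, -0.96 and -0.83 with IFN-γ. These 3 genes were taken from the members without overlap on this measure, so IFN-γ replicate 1 lay on the IFN-γ side by construction. Their values therefore cannot show whether the measure removes what set that library apart. The groups overlapped for 39 members.

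**Figure D4:**
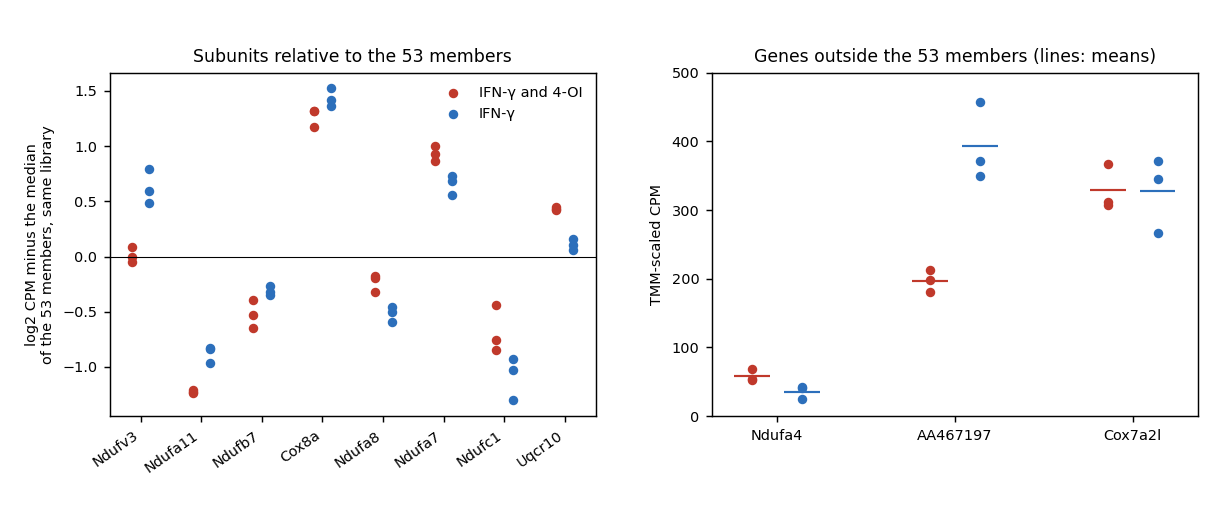
Left, log2 CPM minus the median of the 53 members in the same library, with IFN-γ+4-OI libraries (red) left of IFN-γ libraries (blue). The 8 subunits shown are taken from those whose groups do not overlap on this measure, and 39 of the 53 members do overlap. Right, TMM-scaled CPM of 3 genes outside the members, with lines at the means, for example 58.5 CPM for Ndufa4 and 197 for AA467197 with IFN-γ+4-OI, against 35.5 and 393 CPM with IFN-γ.

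Outside the 53 members, AA467197 is listed by RefSeq with the synonym Nmes1. Its protein is a paralog of NDUFA4 that is known to take the place of NDUFA4 in complex IV of inflamed cells. It had 198, 180.1 and 212 CPM with IFN-γ+4-OI and 372, 457 and 349.5 CPM with IFN-γ, so that the groups lay far apart and IFN-γ replicate 1 lay within the range of its group. It was 2.0-fold lower, with a log2 fold change of -0.997 ± 0.12 (SE; edgeR adjusted p = 0.000350), and passed in all of 17 alternatives. Ndufa4 went the other way, with 52.3, 54.6 and 68.5 CPM with IFN-γ+4-OI and 24.5, 40.3 and 41.8 CPM with IFN-γ, 1.65-fold higher with a log2 fold change of 0.72 ± 0.20 (SE; edgeR adjusted p = 0.0210). With IFN-γ replicate 1 left out the log2 fold change was lower, at 0.51 (edgeR adjusted p = 0.00444), and without both libraries that stood apart it was 0.39 (edgeR adjusted p = 4.04e-07). It passed in 15 of 17 alternatives, the exceptions being scaling by total counts (0.46; edgeR adjusted p = 0.0671) and leaving out IFN-γ+4-OI replicate 3 (0.59; edgeR adjusted p = 0.0843).

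Among the other subunits and isoforms, 11 of which were tested, 1 was lower and 2 higher, against 25.4% of all genes lower and 22.7% higher. The tissue-restricted isoform Cox6a2 was higher, at 2.12 ± 0.146 CPM with IFN-γ+4-OI and 1.31 ± 0.220 CPM with IFN-γ (SD, n = 3; edgeR adjusted p = 0.0210). Cox6a2 passed in 13 of 17 alternatives, and not with total counts (0.43; edgeR adjusted p = 0.107) or without IFN-γ replicate 3, IFN-γ+4-OI replicate 1 or IFN-γ+4-OI replicate 3. Cox4i2 and Ndufa4l2, with means below those of Cox6a2, did not pass (-0.87 and -0.51; edgeR adjusted p = 0.0562 and 0.122), Cox7a1 was too low to be tested, and Cox8b, Cox8c and Cox7b2 were listed at 0. Cox7a2l, which joins complexes III and IV into supercomplexes, had a log2 fold change of 0.00 and Cycs, cytochrome c, one of 0.12 (edgeR adjusted p = 0.988 and 0.406). In complex II, Sdha, Sdhb, Sdhc and Sdhd had log2 fold changes of 0.01, -0.06, 0.38 and 0.07, none past the threshold (edgeR adjusted p = 0.0512 for Sdhc). Of 19 ATP synthase genes tested 1 was higher, Atpif1, the inhibitor of the enzyme (log2 fold change 0.47; edgeR adjusted p = 0.0290), and none lower, beside 22.7% of all genes higher and 25.4% lower. Atpif1 passed in 14 of 17 alternatives. It did not with total counts (0.21; edgeR adjusted p = 0.189), without IFN-γ+4-OI replicate 1 (0.51; edgeR adjusted p = 0.0548) or without IFN-γ+4-OI replicate 3 (0.37; edgeR adjusted p = 0.104), and its value was 0.33 with IFN-γ replicate 1 left out and 0.23 with IFN-γ+4-OI replicate 3 left out as well. Without IFN-γ replicate 1, 1 complex II gene was lower (Sdhb, -0.20) and 1 higher (Sdhc, 0.24), and 3 ATP synthase genes were lower and 1 higher. In that fit 28.2% of all genes were lower and 26.4% higher.

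The counts that follow stand beside 25.4% of all genes lower and 22.7% higher with all libraries. Of 20 complex IV assembly factors tested 4 were higher and none lower: Cox17, a copper chaperone, at 161 ± 21.7 CPM with IFN-γ+4-OI and 111 ± 20.4 CPM with IFN-γ (SD, n = 3), and Cox14, Cox19 and Coa7, with log2 fold changes of 0.54, 0.54, 0.41 and 0.50. Of 16 complex I assembly factors 2 were lower, Ecsit and Acad9 (-0.43 and -0.27), and 1 higher, Timmdc1 (0.57), and of 6 for complex III 1 was lower, Lyrm7 (-0.85), at 0.870 ± 0.186 CPM with IFN-γ+4-OI and 1.57 ± 0.373 CPM with IFN-γ. Of 17 genes of mitochondrial transcription and its nuclear regulators 5 were higher and 4 lower. Twnk, the helicase of mitochondrial DNA, and Gabpb1, a subunit of the ETS factor GABP, were higher (0.77 and 0.43), as were Tfam and Tfb2m (0.27 and 0.36). The coactivator Ppargc1b, the only 1 of the 4 lower genes named here, had 0.99 ± 0.178 CPM with IFN-γ+4-OI and 2.53 ± 0.835 CPM with IFN-γ (edgeR adjusted p = 0.00523). Mterf1a was also higher (0.98), and reads it may share with its near-identical copy Mterf1b were not measured. Without IFN-γ replicate 1 the counts were 2 lower and 5 higher for complex IV assembly, 5 and 1 for complex I assembly, 2 and 0 for complex III assembly, and 3 and 7 for the regulators, beside 28.2% of all genes lower and 26.4% higher. Ecsit, Twnk and Mterf1a passed in 17 of 17 alternatives, Timmdc1 and Coa7 in 14, and Cox14 and Lyrm7 in 13. With total counts Timmdc1, Cox14 and Coa7 did not pass (0.31, 0.29 and 0.24; edgeR adjusted p = 0.121, 0.107 and 0.184). Single omitted libraries that ended a call were IFN-γ+4-OI replicate 1 for Coa7 and Lyrm7, IFN-γ+4-OI replicate 2 for all 4, IFN-γ+4-OI replicate 3 for Timmdc1 and Cox14, IFN-γ replicate 2 for Lyrm7 and IFN-γ replicate 3 for Cox14, with edgeR adjusted p of 0.0516 to 0.104. DESeq2 did not call Lyrm7 (adjusted p = 0.0531).

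For 9 members GENCODE holds a near-identical copy that could share reads (Ndufb4, Ndufb11, Ndufs3, Uqcrb, Uqcr11, Cox5b, Cox6c, Cox7b and Cox7c), so their levels are less certain. Of these copies, Ndufb4c alone had a row in the tables, with 0.663% of the counts of Ndufb4. Exons of 7 members overlap a gene on the opposite strand, and whether the counting used strand is not given in the sources used here. Ndufv2 shares 27.7% of its exon bases with Ankrd12 on the same strand, which counting by strand would not tell apart.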

How the data were processed

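RNA-seq libraries labelled IFN-γ+4-OI or IFN-γ (3 each) were compared. The authors deposited a table per library with raw counts and TPM per gene; reads were aligned with HISAT2 to mm10, per the submitters' processing notes, and the counting tool is not given in the sources used here. Gene coordinates are those of the deposited tables and do not match mm10, and TPM was used only between genes within a group. Counts were filtered with edgeR's filterByExpr (minimum count 10), scaled by TMM and tested with edgeR 4.0.16 (robust quasi-likelihood test, R 4.3.3), with Benjamini-Hochberg adjusted p under 0.05. limma 3.58.1 (voom) and DESeq2 1.42.0, other scalings and filters, a replicate block, omission of each library and offsets for a lowess trend of level on gene length in each library were alternatives. Combinations of an omission with offsets, another scaling or another tool, and the division of complex I into arms, were chosen after seeing the data. Members named with full values were, in each complex, those past the threshold (filled up by smallest p), those with the smallest p without IFN-γ replicate 1, those with the highest and lowest fold change, and those with the highest and lowest mean TPM. From other lists the rule took the genes with the smallest p and a set of isoforms and complex II genes. Other genes were named after their values were seen, and marker and ribosomal genes are given as lists. The members and gene lists were chosen with earlier results of these data known. Of the fits, only edgeR's with all libraries, without and with length offsets, were tested on simulated data. Far fewer genes were changed in that simulation than were called here. Intervals for 3 counts cover counting error only. Promoters are from RefSeq.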

Additional observations from a re-analysis of the deposited data

How the results depend on the processing

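Ndufv3 kept its direction and its side of the threshold under all 17 alternatives. For complex I, 1 lower call became 7 with total counts, 5 with length offsets and 1 to 8 when single libraries were left out. The 8 came without IFN-γ replicate 1, and the count stayed at 1 without any other single library. It became 19 without IFN-γ replicate 1 and IFN-γ+4-OI replicate 3, and 12 with offsets and without both. Of all genes, 38.9% were lower with total counts, 28.1% with offsets and 20.0 to 28.2% without single libraries. Without both libraries 33.3% of all genes were lower, and with offsets as well 33.0% were lower and 33.7% higher. For complex III, 0 became 1 with total counts, 1 with offsets, 0 to 1 without single libraries, 4 without both and 3 with offsets and without both. For complex IV, 0 became 1, 1, 0 to 1, 8 and 7 in the same order. In complexes III and IV, too, only the omission of IFN-γ replicate 1 gave 1, and that of any other single library left 0. The 0 higher calls became 1 without the filter, 1 with DESeq2, 2 with offsets, 0 to 2 without single libraries (1 without IFN-γ replicate 1, 2 without IFN-γ replicate 2), 1 without both and 3 with offsets and without both. Of all genes, 13.3% were higher without the filter, 22.5% with DESeq2, 28.8% with offsets, 17.4 to 26.4% without single libraries and 32.7% without both. Median log2 fold changes with total counts were -0.17, -0.08 and -0.29 for complexes I, III and IV, and total counts moved the median of all genes to -0.27. Without both libraries the medians were -0.15, -0.09 and -0.34 for complexes I, III and IV, and 0.00 for complex III with offsets as well. Without single libraries they ranged from -0.06 to 0.19, 0.00 to 0.28 and -0.18 to 0.12. Without IFN-γ replicate 1, total counts gave 20, 4 and 8 lower and 0 higher in complex III (41.3% of all genes lower and 14.1% higher). Without the same library, offsets gave 0 lower in complex III, 3 lower in complex IV and 1 higher in complex I (28.8% of all genes lower and 29.4% higher). Apart from scaling and the omitted libraries, the cause was not tested.

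With the replicate number as a block, 2 members were lower in complex I, 0 in the other complexes, and 8 higher in all (28.0% of all genes lower and 25.6% higher). With offsets and the block, 6, 1 and 2 were lower and 9 higher (29.6% of all genes lower and 30.6% higher). For each gene tested, the deviation of a library's log2 CPM from the mean of its group was taken. Between same-numbered libraries of the groups these deviations, not the levels themselves, correlated at 0.26, -0.10 and 0.19. Not every library correlated best with its own number. No label says whether the numbers pair the libraries, and correlations over so few libraries cannot decide it.

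All members lay far above the level of 3 counts. The part of depth, and of the spread between 3 libraries a group with IFN-γ replicate 1 within it, in the number of calls was not tested.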
